A study of Mus musculus with 16 samples.

Results

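The 10 genes described here make the liver hormone hepcidin, feed its control, or move and store iron. They are the hepcidin genes Hamp and Hamp2, the signal Bmp6, its target genes Id1 and Smad7, the iron sensor Tfr2, the transferrin receptor Tfrc, the importer Slc11a2, the exporter Slc40a1 and the ferritin subunit Fth1. They were chosen by function and found by symbol among 54838 genes. All 10 had counts in each of the 16 libraries, with a lowest count of 4, and all 10 were among the 14865 genes tested.

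RNA sequencing was done on liver of 8 mice, with 1 library of tumor tissue and 1 of the tissue around the tumor (peri-tumor) from each. Every mouse is labelled HrasG12V, an activated Ras oncogene that drives liver tumors, so control and treated mice alike carry it. The 4 control mice gave 4 control peri-tumor and 4 control tumor libraries. The 4 mice given a decoction of traditional Chinese medicine (TCM) gave 4 TCM peri-tumor and 4 TCM tumor libraries. All carry the label of 3 months, which may be an age or a length of treatment. The protocol text names Ras-transgenic mice together with mice given DEN, a liver carcinogen, and does not say whether these mice received it. What drives the Ras gene, what the decoction holds and how much was given: none of this was stated in the sources used here. Mice are numbered 1 to 4 within a treatment, and mouse 1 of the controls has no link to mouse 1 of the TCM group.

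Hepcidin is a peptide hormone that hepatocytes release into the blood. It binds ferroportin, the iron exporter encoded by Slc40a1, and takes it off the surface of macrophages, gut cells and hepatocytes, so that less iron reaches the plasma. Endothelial cells of the liver sinusoids release BMP6 when iron is plentiful, hepatocytes pass the BMP signal on through SMAD proteins to the hepcidin gene, and interleukin 6 raises hepcidin through STAT3 in inflammation. Inside cells, iron regulatory proteins bind hairpins in the messages of iron genes, where they block ferritin and ferroportin translation and protect the transferrin receptor message.

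Total counts ran from 13947483 to 16194224 per library. Component 1 of a principal component analysis held 54.6% of the variance and parted the tissues. On component 2, with 12.7%, control mouse 4 lay nearer to the TCM mice than the other 3 control mice did. Summed markers of hepatocytes stood at 74440 to 191374 CPM (read counts scaled to a common library total) over the 16 libraries, and none of these 8 markers was at 0. In control mice the sum was 74440 to 112736 CPM in peri-tumor tissue and 114793 to 161426 CPM in tumors, without overlap. In TCM mice it was 100863 to 153132 and 120280 to 191374 CPM, with overlap. A sum is weighted to the most abundant markers, and single markers went both ways. At an adjusted p under 0.05 in edgeR, 3 of the 8 rose and 3 fell in control tumors. In TCM tumors 1 rose and 2 fell. Of all genes tested, 22% rose and 21.2% fell in control tumors, and 17.3% rose and 15.6% fell in TCM tumors. The libraries are bulk tissue, so fewer cells of a type and less RNA per cell cannot be told apart.

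Both hepcidin genes fell in control tumors, and Hamp fell in TCM tumors too. Against control mice, TCM mice had more Hamp and Hamp2 and less Tfrc in tumors by a narrow margin of the test. In peri-tumor tissue they had less Tfrc and Tfr2, and each TCM library held more Hamp than each control library although the test was missed. Over the 10 genes, 5 were called in control tumors against control peri-tumor tissue, 1 higher (Id1) and 4 lower (Hamp, Hamp2, Tfr2 and Slc40a1). A gene is called here when its adjusted p is under 0.05 in edgeR's quasi-likelihood test with Benjamini-Hochberg adjustment over all 14865 genes. In this comparison 43.2% of all genes were called. In TCM mice 4 of the 10 were called between the tissues (Id1 higher, Hamp, Tfr2 and Slc40a1 lower), against 32.9% of all genes (17.3% higher and 15.6% lower), so neither share stands far from its background. TCM against control gave 3 of 10 in peri-tumor tissue (Id1 higher, Tfrc and Tfr2 lower), where 14.1% of all genes were called (6.71% higher and 7.35% lower). In tumors it gave 3 of 10 (Hamp and Hamp2 higher, Tfrc lower), where 7.28% of all genes were called (4.55% higher and 2.72% lower). For the change of the tumor effect with treatment, 1.11% of all genes and 0 of the 10 were called. In that test, 3 of the 10 had an unadjusted p under 0.05 in edgeR, DESeq2 called 3 and limma-voom called 1. The libraries of tumor and peri-tumor tissue did not overlap for 5 of the 10 genes in control mice, where 38.9% of all genes did not, and for 4 of the 10 in TCM mice, where 33.9% did not. Between treatments 3 of the 10 did not overlap in peri-tumor tissue (Hamp, Id1 and Tfr2) and 2 in tumors (Hamp2 and Tfrc). Of all genes, 9.12% were higher and 8.86% lower with TCM without overlap in peri-tumor tissue, and 8.83% and 7.04% in tumors.

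**Figure D1:**
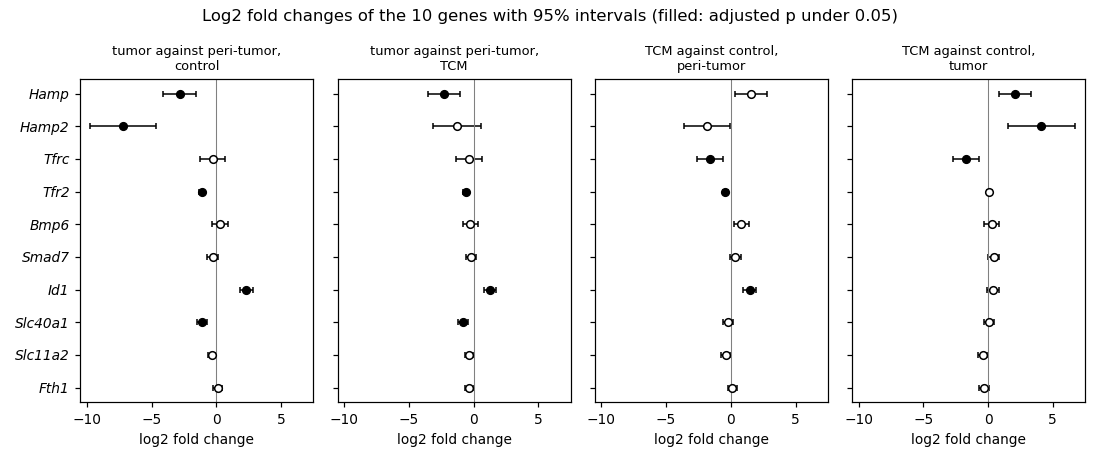
Log2 fold changes of the 10 genes (horizontal axis) in 4 comparisons, with 95% intervals from edgeR. Filled points have an adjusted p under 0.05: 5 of 10 for control tumors, 4 of 10 for TCM tumors, and 3 of 10 for each treatment comparison.

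By the deposited FPKM, the 10 genes span more than 3 orders of size. In control peri-tumor tissue the deposited FPKM (counts scaled to gene length and library total, mean ± SD, n = 4) was 1673 ± 411 for Fth1, 448 ± 83.7 for Hamp, 72.4 ± 86.6 for Hamp2, 41.7 ± 3.96 for Tfr2 and 15.6 ± 2.75 for Slc40a1. Below these, FPKM was 6.01 ± 3.64 for Tfrc, 5.66 ± 1.16 for Slc11a2, 2.87 ± 0.609 for Id1, 1.25 ± 0.0950 for Smad7 and 0.953 ± 0.333 for Bmp6. Fth1, Hamp and the pair of Tfr2 and Slc40a1 stood apart in their libraries. Hamp2 overlapped with each gene from Tfr2 down to Id1, since its own 4 libraries ran from 2.96 to 197 FPKM. Tfrc overlapped with the 4 genes below it, and Smad7 with Bmp6. In control tumors the order changed: Hamp stood at 70.0 ± 62.7, Tfr2 at 20.7 ± 1.47, Id1 at 15.5 ± 4.28, and Hamp2, at 0.494 ± 0.160, was the lowest of the 10. These values depend on the lengths used. The FPKM imply 8831 bases for Tfr2, 10761 for Slc40a1, 1025 for Hamp2 and 866 for Fth1. The longest coding transcripts in GENCODE M21 have 3072, 3370, 437 and 1494 bases. For Hamp both are 410 bases.

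Hamp encodes the hepcidin that controls plasma iron, and Hamp2 is a nearby mouse copy of it. In GENCODE M21 on GRCm38, Hamp lies at chr7:30942368-30944032 and Hamp2 at chr7:30922372-30924681, both on the minus strand. Their 250 bases before the RefSeq start are printed because they show how close the copies are and where a BMP motif of Hamp is altered in Hamp2. Both are from RefSeq on GRCm38.p6, minus strand, at chr7:30944030-30944279 for Hamp and chr7:30924182-30924431 for Hamp2. GENCODE also lists a Hamp2 transcript with a start further upstream, in which the printed stretch is intronic. Capitals mark matches to GGCGCC (the BMP response element), TTCNNNGAA (a STAT motif) and TGAGTCA (an AP-1 motif), each searched on both strands.
Hamp promoter: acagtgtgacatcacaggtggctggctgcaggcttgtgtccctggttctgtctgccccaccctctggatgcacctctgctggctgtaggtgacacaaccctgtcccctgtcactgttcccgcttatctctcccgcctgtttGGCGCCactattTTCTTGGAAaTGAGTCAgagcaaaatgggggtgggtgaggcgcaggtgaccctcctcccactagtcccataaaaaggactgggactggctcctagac
Hamp2 promoter: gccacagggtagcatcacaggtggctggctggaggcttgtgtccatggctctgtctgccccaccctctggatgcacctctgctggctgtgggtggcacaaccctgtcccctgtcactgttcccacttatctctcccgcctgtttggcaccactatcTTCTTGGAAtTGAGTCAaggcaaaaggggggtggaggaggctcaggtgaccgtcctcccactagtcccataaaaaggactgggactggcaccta

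In an alignment of 247 bases these stretches were identical at 91.9%, with 20 substitutions. Hamp held GGCGCC at bases 142 to 147 of the printed stretch. Counted from 1 at the 5′ end of the Hamp stretch, the substitution G145A falls in that match, and the Hamp2 stretch held none. TTCNNNGAA and TGAGTCA were present in both, side by side. Of 32851 promoter stretches of this length in the RefSeq table, 9.59% held GGCGCC, 7.02% TTCNNNGAA and 4.46% TGAGTCA. Among the 6 of the 10 genes with an entry in the table (Hamp, Hamp2, Tfrc, Tfr2, Bmp6 and Fth1), GGCGCC was also found before a start of Tfrc. A match is a string of letters, not a site shown to be bound. The transcripts are close too: 16.6% of the 50-base words of Hamp also occur in Hamp2, and 15.5% of those of Hamp2 occur in Hamp, so reads of the shared words could have been counted for either gene. Exons of the lincRNA Gm44662 on the opposite strand cover 20.4% of Hamp2, and Gm44662 itself had 0 to 18 counts per library.

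In control mice Hamp fell from peri-tumor tissue to tumor in every mouse. Peri-tumor Hamp was 239.7, 168, 175 and 161 CPM in control mice 1 to 4, and tumor Hamp was 19.9, 9.49, 16.6 and 59.6 CPM. The groups did not overlap, and mouse 4 held both the lowest peri-tumor and the highest tumor value. Peri-tumor tissue thus held 12.04, 17.7, 10.6 and 2.71 times the tumor level within mice 1 to 4. The log2 fold change was -2.81 ± 0.603 (SE, edgeR quasi-likelihood test, Benjamini-Hochberg adjusted p = 0.00141), and -3.69 (adjusted p = 3.39e-04) without control mouse 4.

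In TCM mice Hamp fell from peri-tumor tissue to tumor as well. Peri-tumor Hamp was 509, 721, 254.7 and 717 CPM in TCM mice 1 to 4, and tumor Hamp was 166, 147, 116 and 19.4 CPM. Again the groups did not overlap, and Hamp was lower in tumor in 4 of 4 mice, by 3.07, 4.89, 2.20 and 37.0 times. Mouse 4 spans the widest gap, with a peri-tumor value next to the highest and the only TCM tumor value within the range of the control tumors. The log2 fold change was -2.30 ± 0.587 (edgeR, adjusted p = 0.00675). The tumor effect did not differ detectably between treatments: the difference was 0.52 on the log2 scale, with a 95% interval of -1.17 to 2.21 (edgeR, adjusted p = 0.791). It was 1.41 without control mouse 4 (adjusted p = 0.308) and 1.32 without control tumor 4 (adjusted p = 0.359).

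Between treatments, Hamp was higher in all 4 TCM peri-tumor libraries than in all 4 control ones, at a mean of 551 ± 221 against 186 ± 36.2 CPM (SD, n = 4). The log2 fold change of 1.56 ± 0.572 did not pass the test (edgeR, adjusted p = 0.0787). It passed with limma-voom (adjusted p = 0.0358) and when only these 8 libraries were fitted (edgeR, adjusted p = 0.0153), and in none of the 8 fits that left out 1 library. In tumors the means were 112 ± 65.2 against 26.4 ± 22.6 CPM, and 3 of 4 TCM tumors lay above all control tumors. Here the log2 fold change of 2.08 ± 0.587 passed (edgeR, adjusted p = 0.0424), though narrowly. The call was lost when only the 8 tumor libraries were fitted (edgeR, adjusted p = 0.107). It was also lost with library totals (0.0612), with no filter (0.0562) and without TCM mouse 3 (0.0861). Leaving out any of control tumors 1 to 3 or TCM tumors 1 to 3 ended the call, with adjusted p between 0.0796 and 0.113. Leaving out either tumor 4 kept it, with a lowest adjusted p of 0.00870. Without both libraries of control mouse 4 the log2 fold change was 2.90 (edgeR, adjusted p = 0.00746).

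**Figure D2:**
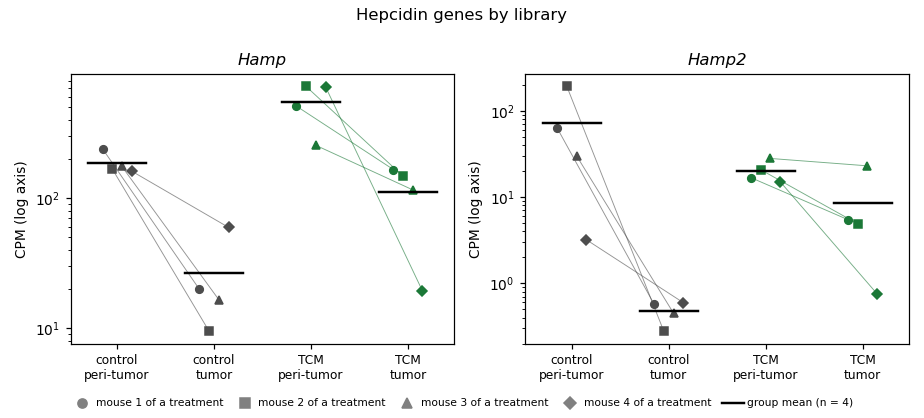
CPM of Hamp and Hamp2 on log axes in the 16 libraries, with lines joining the tissues of a mouse and bars at group means (n = 4). Each line falls from peri-tumor to tumor tissue, and control peri-tumor Hamp2 runs from 3.21 to 192.5 CPM.

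Hamp2 had a coefficient of variation of 116% in control peri-tumor tissue against 19.4% for Hamp. In control tumors, TCM peri-tumor tissue and TCM tumors it was 30.8%, 28.7% and 116% for Hamp2 and 85.5%, 40.1% and 58.2% for Hamp. Control peri-tumor Hamp2 was 63.4, 192.5, 30.2 and 3.21 CPM in mice 1 to 4, and every control tumor had under 1, at 0.571, 0.277, 0.450 and 0.597 CPM. These tumor values rest on 4 to 10 counts each. Mouse 2 was the highest in peri-tumor tissue and mouse 4 the lowest, without overlap between the tissues. The fall was the largest of the 10 genes, at a log2 fold change of -7.22 ± 1.21 (edgeR, adjusted p = 1.86e-04). Without the peri-tumor library of control mouse 2 it was -6.08.

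In TCM mice Hamp2 was 16.8, 20.8, 28.1 and 15.1 CPM in peri-tumor tissue and 5.47, 4.90, 23.1 and 0.753 CPM in tumor. TCM tumor 3 lay above 3 of the 4 peri-tumor libraries, so the tissues overlapped. Although lower in tumor in 4 of 4 mice, Hamp2 did not pass the test there (log2 fold change -1.25 ± 0.867, edgeR, adjusted p = 0.296), nor without TCM tumor 3 (-2.43, adjusted p = 0.0587). In peri-tumor tissue the means were 20.2 CPM in TCM and 72.3 CPM in control mice, and the log2 fold change of -1.84 ± 0.847 was not called (edgeR, adjusted p = 0.158). It was -0.68 without control peri-tumor 2 (adjusted p = 0.643), and -2.24 and called without control peri-tumor 4 (adjusted p = 0.0326). All 4 TCM tumors lay above all 4 control tumors, and the log2 fold change of 4.13 ± 1.20 passed (edgeR, adjusted p = 0.0489). That call was lost in 7 of the 8 fits without 1 library (adjusted p 0.0563 to 0.175), and held only without TCM tumor 4. Without TCM tumor 3 the log2 fold change was 2.95. With limma-voom it was 3.51 and not called (adjusted p = 0.275). The difference of the tumor effect was 5.97 on the log2 scale, with a 95% interval of 2.84 to 9.10, and missed the threshold (edgeR, adjusted p = 0.0625). It passed with DESeq2 (adjusted p = 0.00109), with edgeR without control mouse 4 (adjusted p = 0.0176) and in 2 of the 16 edgeR fits without 1 library. It did not pass with limma-voom (4.81, adjusted p = 0.231). With edgeR it also failed with the mouse as a block (4.88, adjusted p = 0.0792) and without TCM mouse 3 (4.99, adjusted p = 0.191).

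As a share of the hepcidin counts, Hamp2 held 20.9%, 53.4%, 14.7% and 1.95% in control peri-tumor libraries 1 to 4. In control tumors the share was 2.79%, 2.84%, 2.64% and 0.991%, in TCM peri-tumor tissue 3.19%, 2.80%, 9.94% and 2.06%, and in TCM tumors 3.19%, 3.22%, 16.6% and 3.74%. Mice differed more than the counting error allows: the 95% Wilson interval was 52.1% to 54.7% for control peri-tumor 2 and 1.46% to 2.59% for control peri-tumor 4. TCM mouse 3 had the highest share of its group in both tissues. The means of 2.31% in control and 6.69% in TCM tumors differed at the smallest p that 4 against 4 libraries allow (exact permutation test, two-sided, p = 0.0286), which did not pass after adjustment over 4 comparisons (adjusted p = 0.114). The other 3 comparisons had adjusted p of 0.190 to 0.486 in the same exact permutation test. Without control peri-tumor 4, both comparisons with control peri-tumor tissue reached an adjusted p of 0.0381.

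Bmp6, the ligand that reports iron to hepatocytes, was called in no comparison. In control mice 1 to 4 it stood at 2.23, 4.23, 5.66 and 5.30 CPM in peri-tumor tissue and at 4.94, 4.78, 4.56 and 6.81 CPM in tumor. In TCM mice 1 to 4 it stood at 5.55, 9.51, 6.57 and 9.02 CPM in peri-tumor tissue and at 7.05, 6.76, 7.93 and 3.97 CPM in tumor. The groups overlapped in every comparison. In peri-tumor tissue only control mouse 3 reached above the lowest TCM library, with means of 7.66 CPM in TCM and 4.36 CPM in control mice. That log2 fold change was 0.82 ± 0.279 (edgeR, adjusted p = 0.0615), and it passed without control peri-tumor 4 (0.92, adjusted p = 0.0446) and with DESeq2 (adjusted p = 0.0293). Exons of Txndc5 on the opposite strand cover 6.23% of Bmp6, and Txndc5 ran at 1817 to 5669 counts per library. The sources used here do not say whether reads were counted by strand. The summed markers of sinusoidal endothelial cells, known as the main source of liver BMP6, ran from 293 to 547 CPM in control and from 246 to 373 CPM in TCM peri-tumor tissue. Their part in the Bmp6 level was not tested.

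Id1, an inhibitor of DNA binding that BMP signals switch on, rose where Hamp fell. Control peri-tumor Id1 was 4.27, 6.53, 6.30 and 7.19 CPM and control tumor Id1 30.4, 23.4, 26.8 and 40.4 CPM in mice 1 to 4. TCM peri-tumor Id1 was 11.2, 19.4, 13.5 and 22.2 CPM and TCM tumor Id1 36.0, 39.0, 49.6 and 35.4 CPM. Tumors lay above peri-tumor tissue in all 8 mice without overlap, at log2 fold changes of 2.32 ± 0.235 in control (edgeR, adjusted p = 1.87e-06) and 1.27 ± 0.222 in TCM mice (adjusted p = 4.49e-04). In peri-tumor tissue TCM lay above control without overlap too, at 1.45 ± 0.232 (edgeR, adjusted p = 0.00152), the direction of the Hamp means there. In tumors the difference of 0.40 did not pass (edgeR, adjusted p = 0.269), with a 95% interval of -0.06 to 0.86. These 3 calls held without each library in turn.

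Smad7, the inhibitory SMAD that BMP signals also induce and that damps hepcidin, was called in no comparison. Its means were 9.80 ± 0.479, 8.07 ± 1.12, 12.6 ± 3.40 and 11.0 ± 2.58 CPM (SD, n = 4) in control peri-tumor, control tumor, TCM peri-tumor and TCM tumor tissue. The groups overlapped in all 4 comparisons. The widest difference was 0.44 on the log2 scale for TCM against control tumors, with a 95% interval of 0.02 to 0.87 (edgeR, adjusted p = 0.185).

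**Figure D3:**
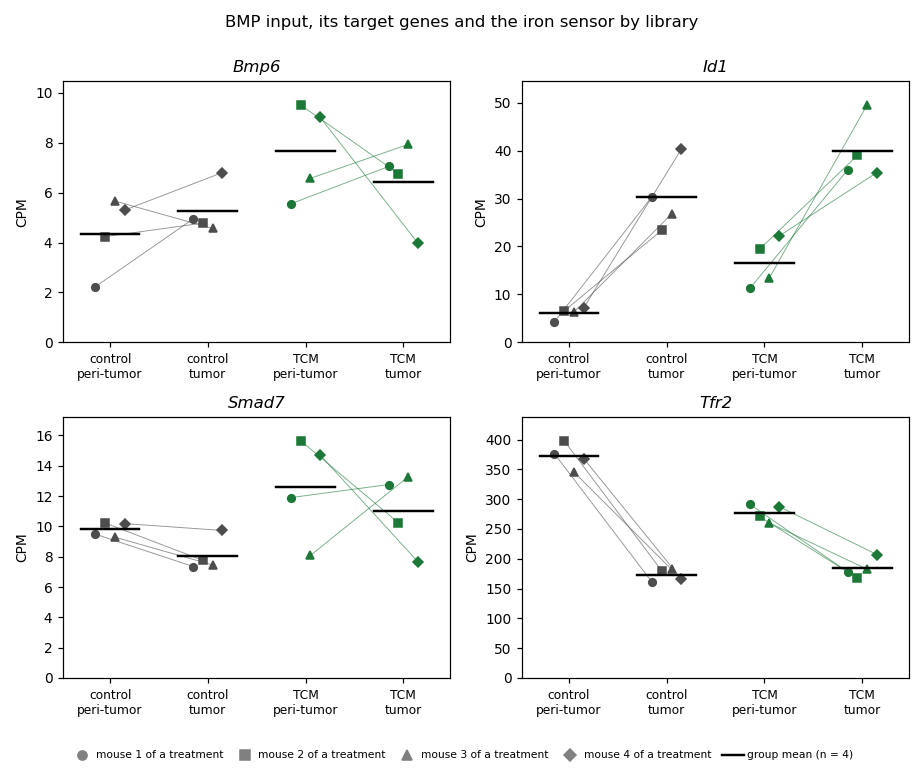
CPM of Bmp6, Id1, Smad7 and Tfr2 in the 16 libraries, with lines joining the tissues of a mouse and bars at group means (n = 4). Id1 is higher and Tfr2 lower in the tumor of each of the 8 mice, while the groups of Bmp6 and Smad7 overlap.

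The other 6 BMP target genes did not move as 1 group. In control tumors Id2 rose (1.12 ± 0.168, adjusted p = 7.10e-05), and 3 fell, among them Smad9 (-2.48 ± 0.627, adjusted p = 0.00464) and Atoh8, a factor that promotes hepcidin transcription (-1.50 ± 0.393, adjusted p = 0.00593), all by edgeR. Of all genes, 22% were called higher and 21.2% lower in that comparison. Smad9, an SMAD of the BMP branch, had the sign of Hamp in all 4 comparisons. It fell in TCM tumors (-1.97 ± 0.512, edgeR adjusted p = 0.00760) and was higher with TCM in peri-tumor tissue (2.32 ± 0.522, adjusted p = 0.0101) and in tumors (2.83 ± 0.622, adjusted p = 0.0155). Without control mouse 4 Smad9 was -3.49 in control tumors (edgeR, adjusted p = 7.35e-04) and 4.18 for TCM against control tumors (adjusted p = 0.00144), and without control tumor 2 the latter missed the threshold (2.57, adjusted p = 0.0514). Its peri-tumor levels were 4.27, 2.30, 2.29 and 6.07 CPM in control and 19.7, 18.6, 16.7 and 19.4 CPM in TCM mice, without overlap. Tumor levels of Smad9 were 0.380, 0.208, 0.193 and 1.79 CPM in control and 4.74, 6.89, 6.35 and 1.03 CPM in TCM mice, with overlap. Control tumors 1 to 3 were thus under 1 CPM, so the Smad9 changes that involve control tumors rest on few counts. Id2 rose with TCM in peri-tumor tissue as Id1 did (0.73 ± 0.167, edgeR adjusted p = 0.0112).

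Over all genes tested, the 5 whose course across the 16 libraries was nearest to Hamp were Rgn, Smad9, Sult2a8, Slc15a5 and Gm4756. Likeness is the root mean square difference of log2 CPM after each gene is centred on its own mean. It was 0.671 to 0.695 for these 5, where the spread of Hamp itself was 1.88. Rgn, a calcium-binding protein of liver, averaged 734 CPM in peri-tumor tissue and 47.5 CPM in tumors of control mice, and 892 and 169 CPM in those of TCM mice. Nearest to Hamp2 were Slco1a4, Cyp2c37, Pon1, Car1 and Cyp2c38, at 1.15 to 1.22 against a spread of 2.64. Likeness is a description over libraries that share groups and mice, and it carries no test.

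Tfr2, the transferrin receptor that serves hepatocytes as an iron sensor for hepcidin, had tight groups, with coefficients of variation of 5.26% to 9.11%. In control peri-tumor tissue it was 376, 398, 345 and 368 CPM and in control tumor 161, 179, 182 and 166 CPM in mice 1 to 4. TCM peri-tumor values were 291, 271, 259.9 and 287 CPM, and TCM tumor values 178, 168, 182 and 207 CPM. The 2 peri-tumor groups stood apart from each other and from the tumors, while the tumors of both treatments overlapped. Tfr2 fell in control tumors by 1.11 ± 0.0935 (edgeR, adjusted p = 3.36e-07) and in TCM tumors by 0.59 ± 0.0927 on the log2 scale (adjusted p = 1.73e-04). In peri-tumor tissue it was lower with TCM by a log2 fold change of -0.42 ± 0.0925 (edgeR, adjusted p = 0.00867), opposite in direction to the Hamp means. All 3 calls held without each library in turn. The difference of the tumor effect, 0.52 ± 0.131, missed the threshold (edgeR, adjusted p = 0.0646). It passed with DESeq2 (adjusted p = 0.00131) and limma-voom (adjusted p = 0.0314). With edgeR it also passed without control mouse 4 (0.55, adjusted p = 0.0417), without control peri-tumor 4 (0.52, adjusted p = 0.0394) and without TCM tumor 2 (0.60, adjusted p = 0.0472).

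Of the 18 tested genes among 19 further regulators of hepcidin, 7 fell and 3 rose in control tumors, and 6 fell and 3 rose in TCM tumors. Their median log2 fold changes were -0.10 and -0.05, where both medians of all genes rounded to 0.00. Of all genes, 21.2% fell and 22% rose in control tumors, and 15.6% fell and 17.3% rose in TCM tumors. Tmprss6, the protease that cleaves hemojuvelin and so restrains hepcidin, fell by 1.10 ± 0.153 in control tumors (edgeR, adjusted p = 3.46e-05) and by 0.71 ± 0.151 in TCM tumors (adjusted p = 0.00200). Hfe, a partner of Tfr2 in iron sensing, fell by 0.51 ± 0.109 in TCM tumors (edgeR, adjusted p = 0.00225). In control mice its mean was 44.6 CPM in peri-tumor tissue and 33.3 CPM in tumor, with overlap. Cebpa, a hepatocyte factor that binds the hepcidin promoter, fell by 1.02 ± 0.196 in control tumors (edgeR, adjusted p = 6.08e-04), while Smad1, which carries the BMP signal, rose by 0.63 ± 0.144 (adjusted p = 0.00237). In TCM mice the mean of Cebpa was 631 CPM in peri-tumor tissue and 433 CPM in tumor, with overlap. That of Smad1 was 18.8 and 26.0 CPM, without overlap. Between treatments 1 of 18 was called in each tissue, where 14.1% (peri-tumor) and 7.28% (tumor) of all genes were. An unadjusted p under 0.05 in edgeR was reached by 7 in peri-tumor tissue and 5 in tumors. DESeq2 called 2 and 3 there, and limma-voom 3 and 3. The edgeR call was the same gene in both tissues. Fgl1, a secreted protein that binds BMP6 and holds hepcidin down, was lower with TCM by -3.12 ± 0.360 in peri-tumor tissue (edgeR, adjusted p = 1.89e-04) and by -1.47 ± 0.339 in tumors (adjusted p = 0.0188). The tumor call was lost without control tumor 2 (-1.39, adjusted p = 0.0551) or TCM tumor 3 (-1.26, adjusted p = 0.0566). Its peri-tumor levels were 1012, 1088, 966 and 1241 CPM in control and 142, 122, 127 and 103 CPM in TCM mice.

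The interleukin 6 and STAT3 arm raises hepcidin in inflammation. Of its 12 tested genes, 7 were lower with TCM in peri-tumor tissue, where the Hamp mean was higher, and none was called higher. Of all genes, 7.35% were lower there. Saa1, an acute phase protein, was 313, 444, 373 and 5984 CPM in control mice 1 to 4 and 15.999, 19.1, 8.09 and 18.8 CPM in TCM mice. Control mouse 4 stood apart, and the groups did not overlap (log2 fold change -6.84 ± 1.26, edgeR, adjusted p = 0.00348). Without control mouse 4 the log2 fold change of Saa1 was -4.60 (adjusted p = 2.33e-04). Lcn2, an iron-siderophore binding protein of the acute phase, was 245, 214, 166 and 765 CPM in control and 5.62, 6.01, 12.997 and 5.37 CPM in TCM mice 1 to 4, without overlap. Its log2 fold change was -5.54 ± 0.624 (edgeR, adjusted p = 1.89e-04), and -4.81 without control mouse 4 (adjusted p = 5.24e-05). Socs3, the feedback inhibitor of STAT3, was lower by -2.29 ± 0.442 (edgeR, adjusted p = 0.00459), and by -3.07 without TCM peri-tumor 4 (adjusted p = 6.77e-04). In tumors 0 of 12 were called between treatments by edgeR, 2 had an unadjusted p under 0.05, and DESeq2 called 1 and limma-voom 2. Between tissues 5 fell and 2 rose in control mice (21.2% and 22% of all genes), and 1 fell and 2 rose in TCM mice (15.6% and 17.3% of all genes).

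Tfrc imports transferrin-bound iron, and it was low in TCM mice in both tissues. Control peri-tumor Tfrc was 64.9, 93.5, 62.6 and 12.6 CPM and control tumor Tfrc 67.1, 58.6, 47.1 and 22.7 CPM in mice 1 to 4. In TCM mice it was 16.1, 11.3, 27.4 and 21.6 CPM in peri-tumor tissue and 19.3, 13.6, 9.59 and 17.6 CPM in tumor. Control mouse 4 was the lowest of the controls in both tissues and fell within the TCM range in peri-tumor tissue, while in tumors the treatments did not overlap. Tissues did not differ detectably, with log2 fold changes of -0.26 in control (95% interval -1.22 to 0.70) and -0.34 in TCM mice (-1.34 to 0.65). With TCM, Tfrc was lower by -1.61 ± 0.467 in peri-tumor tissue (edgeR, adjusted p = 0.0326) and by -1.70 ± 0.470 in tumors (adjusted p = 0.0397).

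Both Tfrc calls were narrow. In peri-tumor tissue the call held without control peri-tumor 4 or TCM peri-tumor 3 and was lost without each of the other 6 libraries (edgeR, adjusted p 0.0581 to 0.105). In tumors it held only without control tumor 4, and was lost without each of the other 7 (adjusted p 0.0587 to 0.116). Without both libraries of control mouse 4, the log2 fold changes were -1.96 (edgeR, adjusted p = 3.73e-04) and -1.90 (adjusted p = 0.00128). The direction was the same in all these fits. Summed erythroid markers ran from 547 to 795 CPM in control and from 484 to 753 CPM in TCM peri-tumor tissue, and in tumors from 248 to 562 and from 282 to 396 CPM. The markers Epb42 and Rhag were at 0 in TCM peri-tumor tissue, and Rhag in both tumor groups. The part of erythroid cells in the Tfrc level was not tested.

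**Figure D4:**
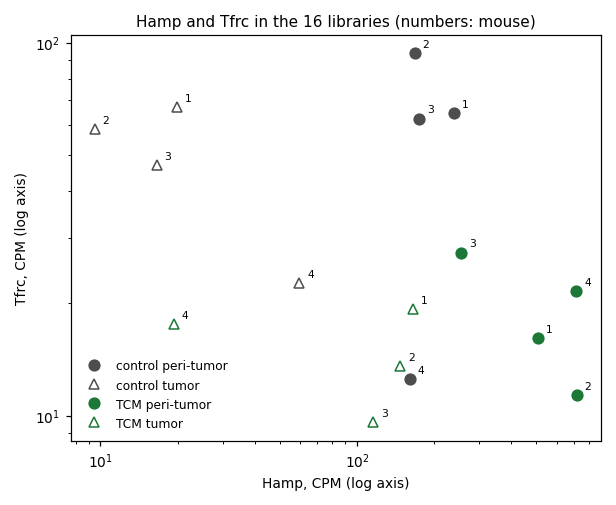
CPM of Hamp (horizontal) and Tfrc (vertical) on log axes, 1 point per library, labelled by mouse. Control libraries of mice 1 to 3 lie at 47.1 to 93.5 CPM of Tfrc, control mouse 4 at 12.6 and 22.7, and the TCM libraries at 9.59 to 27.4.

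Iron regulatory proteins bind hairpins in messages when a cell is short of iron. A search for a set form of this hairpin found it in messages of 3 of the 10 genes. Hairpins of any other form would be missed, so a gene without a match is not shown to lack one. A stem closed around a CAGTGN loop was searched in the untranslated regions of 21877 protein-coding genes of GENCODE M21 on GRCm38, and 222 genes (1.01%) held one. Tfrc held 4 in its 3′ region, and it was the only gene with 3 or more. Fth1 and Slc40a1 held 1 each in the 5′ region. They are shown with the loop in capitals: Fth1 at chr19:9982732-9982760 (plus strand), Slc40a1 at chr1:45925465-45925493 (minus) and Tfrc from chr16:32631219-32631247 to chr16:32631710-32631738 (plus).
Fth1: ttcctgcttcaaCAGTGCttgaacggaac
Slc40a1: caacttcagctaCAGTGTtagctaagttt
Tfrc copy 1: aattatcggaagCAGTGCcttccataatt
Tfrc copy 2: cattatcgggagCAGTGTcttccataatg
Tfrc copy 3: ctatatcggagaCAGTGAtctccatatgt
Tfrc copy 4: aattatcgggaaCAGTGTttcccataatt

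A list of 5 genes held the iron regulatory proteins Aco1 and Ireb2, their ligase Fbxl5, and Zfp36 and Zfp36l1, which are not iron regulatory proteins. Of these 5, 1 rose and 2 fell in control tumors and 2 fell in TCM tumors, where 43.2% and 32.9% of all genes were called. With TCM, 2 of the 5 were higher in each tissue, where 6.71% (peri-tumor) and 4.55% (tumor) of all genes were. They were Ireb2 and Fbxl5 in peri-tumor tissue and Ireb2 and Zfp36 in tumors. Zfp36 was higher with TCM in tumors by 0.86 ± 0.187 (edgeR, adjusted p = 0.0148), at 80.9 to 137 against 49.1 to 58.7 CPM. In peri-tumor tissue its difference of 0.57 ± 0.186 was not called (edgeR, adjusted p = 0.0520). Ireb2, an iron regulatory protein, fell in control tumors by 0.45 ± 0.126 (edgeR, adjusted p = 0.00884) and in TCM tumors by 0.67 ± 0.126 (adjusted p = 7.72e-04). It was higher with TCM by 0.74 ± 0.126 in peri-tumor tissue (edgeR, adjusted p = 0.00220) and by 0.52 ± 0.126 in tumors (adjusted p = 0.0233), against the direction of Tfrc. The tumor call was lost without control tumor 2 (0.52, adjusted p = 0.0566) or control tumor 3 (0.48, adjusted p = 0.0550). Fbxl5, the iron-sensing ligase that marks iron regulatory proteins for breakdown, rose in control tumors by 0.71 ± 0.118 (edgeR, adjusted p = 1.62e-04). With TCM it was higher in peri-tumor tissue by 0.48 ± 0.118 (edgeR, adjusted p = 0.0156), and this call was lost without control peri-tumor 3 (0.43, adjusted p = 0.0515) or TCM peri-tumor 1 (0.43, adjusted p = 0.0515). Aco1, the other iron regulatory protein, fell by 0.65 ± 0.119 in control (edgeR, adjusted p = 3.90e-04) and by 0.32 ± 0.119 in TCM tumors (adjusted p = 0.0488). The TCM call of Aco1 held only without TCM tumor 4 among the 8 fits without 1 library, with adjusted p of 0.0604 to 0.122 in the other 7. Message levels say nothing of the binding or the activity of these proteins.

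Slc40a1, which encodes ferroportin, the target of hepcidin, was lower in the tumor of each of the 8 mice. Control peri-tumor values were 175, 192, 174 and 137 CPM and control tumor values 93.4, 74.5, 67.4 and 76.6 CPM. In TCM mice they were 122, 132, 164 and 155 CPM in peri-tumor tissue and 89.0, 99.9, 88.5 and 51.8 CPM in tumor. Tissues did not overlap in either treatment, and treatments overlapped in both tissues. Slc40a1 fell by 1.12 ± 0.179 in control (edgeR, adjusted p = 1.26e-04) and by 0.80 ± 0.178 on the log2 scale in TCM tumors (adjusted p = 0.00278). TCM against control gave -0.24 in peri-tumor tissue (95% interval -0.62 to 0.13) and 0.08 in tumors (-0.30 to 0.46).

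Kupffer cells, the resident liver macrophages that recycle iron and carry much ferroportin, had markers that fell in the same tumors. In control tumors 9 of 9 fell, and their summed level went from 934 to 1449 CPM in peri-tumor tissue down to 189 to 271 CPM. In TCM tumors 5 of 9 fell, from 572 to 650 CPM down to 114 to 360 CPM, and in peri-tumor tissue 6 of 9 were lower with TCM than in control mice. None of the 9 was at 0 in any group. Markers of recruited macrophages rose in 7 of 8 in control and in 6 of 8 in TCM tumors, with summed levels of 1011 to 2426 and 465 to 1332 CPM against 65.1 to 108.96 and 52.2 to 86.0 CPM beside them. Of all genes, 21.2% fell and 22% rose in control tumors, 15.6% fell and 17.3% rose in TCM tumors, and 7.35% were lower with TCM in peri-tumor tissue. The part of these cells in the Slc40a1 level was not tested.

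Slc11a2, which encodes the iron transporter DMT1, was lower in tumor in 8 of 8 mice and lower in the mean of TCM than of control mice in both tissues, by small amounts. The means were 41.2 ± 7.25 and 32.8 ± 5.89 CPM in control peri-tumor and tumor tissue, and 31.6 ± 4.07 and 24.6 ± 3.34 CPM in TCM tissue, with overlap in all comparisons. Log2 fold changes between tissues were -0.33 ± 0.157 and -0.36 ± 0.158 (edgeR, adjusted p = 0.102 and 0.0942). With the mouse as a block they were called, at -0.33 (adjusted p = 0.0161) and -0.36 (adjusted p = 0.0149). The treatment differences of -0.39 and -0.41 were not called (edgeR, adjusted p = 0.112 and 0.120), and without control mouse 4 both were, at -0.50 (adjusted p = 0.0142) and -0.49 (adjusted p = 0.0254).

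Fth1, the ferritin heavy chain that stores iron, was the most abundant of the 10 and was called in no comparison. Its means were 1465 ± 363, 1576 ± 196.7, 1603 ± 113 and 1272 ± 154 CPM in control peri-tumor, control tumor, TCM peri-tumor and TCM tumor tissue, with overlap between the groups compared. The 95% intervals of its 4 log2 fold changes spanned -0.69 to 0.48 in all. Ferritin is set largely by translation through the hairpin shown above, which message counts do not measure. Among 4 other tested genes of ferritin storage and release, none was called by edgeR in these 4 comparisons, and the largest count at an unadjusted p under 0.05, and by DESeq2 or limma-voom, was 1 per comparison.

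**Figure D5:**
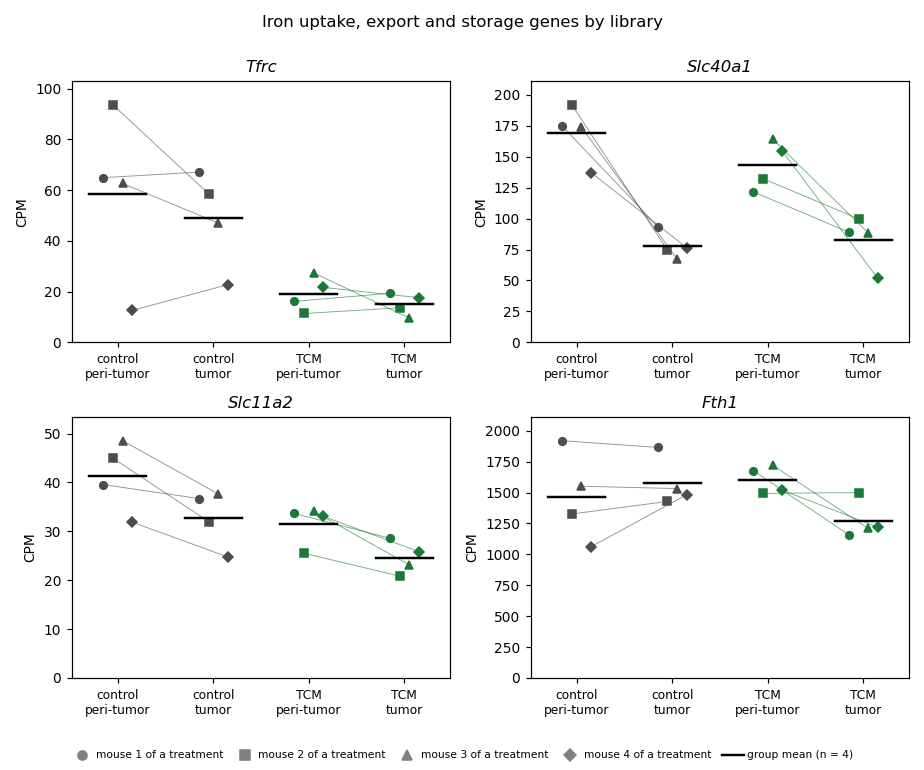
CPM of Tfrc, Slc40a1, Slc11a2 and Fth1 in the 16 libraries, with lines joining the tissues of a mouse and bars at group means (n = 4). Slc40a1 and Slc11a2 are lower in the tumor of each mouse, and Tfrc is lower in TCM mice than in control mice 1 to 3.

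Around the 10 genes, other iron pathways shifted in tumors. Of 13 genes of mitochondrial iron and iron-sulfur cluster assembly, 9 fell in control and 7 in TCM tumors and none rose, where 21.2% and 15.6% of all genes were called lower, and the medians were -0.56 and -0.44. Abcb10, a mitochondrial transporter that supports heme synthesis, fell by 1.26 ± 0.160 and 1.15 ± 0.158 (edgeR, adjusted p = 1.51e-05 and 5.62e-05), and Nfs1, the cysteine desulfurase of cluster assembly, by 0.56 ± 0.0874 and 0.49 ± 0.0873 (adjusted p = 9.85e-05 and 5.51e-04). Of 12 genes of heme synthesis and breakdown, 6 fell in control and 4 in TCM tumors and none rose. Cpox and Alad, enzymes of heme synthesis, fell by 1.37 ± 0.167 and 0.81 ± 0.0810 in control tumors (edgeR, adjusted p = 1.04e-05 and 1.70e-06). In TCM tumors they fell by 1.16 ± 0.166 and 0.70 ± 0.0808 (edgeR, adjusted p = 8.56e-05 and 1.25e-05).

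Uptake and export genes went both ways. Of 11 tested genes of iron and heme uptake, 5 fell and 3 rose in control tumors, and 2 fell and 4 rose in TCM tumors. Of all genes, 21.2% fell and 22% rose in control tumors and 15.6% fell and 17.3% rose in TCM tumors. Tf, which encodes transferrin, rose by 1.30 ± 0.228 in TCM tumors (edgeR, adjusted p = 4.47e-04). It was higher in control tumors too, at 33254 to 45659 CPM against 18600 to 27186 CPM in control peri-tumor tissue, without overlap. In peri-tumor tissue 4 of 11 were lower with TCM and none higher, where 7.35% of all genes were lower, among them the heme and hemoglobin scavengers Hpx (-1.37 ± 0.185, edgeR adjusted p = 5.91e-04) and Hp (-1.95 ± 0.334, adjusted p = 0.00226). Alas1, the first enzyme of heme synthesis in liver, and Hmox1, which breaks heme down and frees its iron, were also lower there (-1.79 ± 0.363 and -1.75 ± 0.330, edgeR adjusted p = 0.00590 and 0.00397). They were the only 2 of the 12 genes of heme synthesis and breakdown called there (16.7%), where 14.1% of all genes were called. The median log2 fold change of the 12 was 0.08, so the heme genes were not lower as a group. Of 4 tested genes of iron export and oxidation, 2 rose and 0 fell in control tumors, and 1 rose and 1 fell in TCM tumors. Cp, a ferroxidase that works with ferroportin, rose in tumors by 0.99 ± 0.240 in control (edgeR, adjusted p = 0.00357) and by 1.29 ± 0.242 in TCM mice (adjusted p = 7.51e-04). Abcg2 fell in TCM tumors (-0.96 ± 0.161, edgeR adjusted p = 3.15e-04) and was higher with TCM in peri-tumor tissue (1.10 ± 0.161, adjusted p = 9.61e-04).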

How the data were processed

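The deposited table of counts holds whole reads per gene for 16 libraries, unscaled, per the file headers, as the authors deposited them. The deposited FPKM files hold the authors' values per library. Set against the counts, they imply the same length of a gene in every library, within 0.00924% over 11980 genes. They served only to compare levels between genes. RNA was isolated with the mirVana kit and libraries were made with the VAHTS stranded mRNA kit, per the labels' protocols. The builds mm9 and mm10 are named in the submitters' processing notes, without their roles, while aligner and read counter were not given in the sources used here. Coordinates come from GENCODE M21 and RefSeq on GRCm38 and rest on gene IDs and symbols.

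Counts of 54838 genes (115 without a symbol, Hjv and Tf listed as Hfe2 and Trf) were scaled with TMM factors and tested in edgeR 4.0.16 (R 4.3.3). The filter was filterByExpr with a count minimum of 10 on the 4 groups, and 1 quasi-likelihood fit of all 16 libraries left 12 residual degrees of freedom. Tests covered 14865 genes in 5 comparisons: tumor against peri-tumor tissue in each treatment, TCM against control in each tissue, and the difference of the tumor effect. Genes with a Benjamini-Hochberg adjusted p under 0.05 were called. CPM are counts over the TMM-scaled library total, and SE was taken as log2 fold change divided by the root of F. No libraries were copies of each other (the lowest chi-square over its degrees of freedom was 16.87). The share of Hamp2 was compared with exact permutation tests. Counting intervals cover counting error only. The fit was tested on simulated data with known changes.

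The 10 genes, the gene lists and the alternatives were chosen with earlier results of these data known. Named besides the 10 were up to 3 members per list with the lowest p in a comparison and a mean of at least 1 CPM, and the 5 genes most like Hamp or Hamp2. Marker lists are given by sums and counts, and 1 marker is not reported here. Genes named outside that rule (such as those overlapping a member, or markers at 0) were chosen after their values were seen. Tumor and peri-tumor tissue were paired by the animal code of the labels. The correlation of both tissues after removal of group means was 0.155, 0.116, 0.0627 and 0.228 for control mice 1 to 4, and 0.235, 0.0433, 0.0913 and 0.114 for TCM mice 1 to 4. Alternatives were RLE factors, library totals, DESeq2 1.42.0, limma-voom 3.58.1, other filters, only the groups compared, a block, Hamp and Hamp2 summed, and libraries or mice left out.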

Additional observations from a re-analysis of the deposited data

Results flagged for a closer look

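In each group of 4 libraries, the highest or lowest value was set against the others by its gap over the group's range (Dixon's test at its 95% limit). Of 44 groups tested (10 genes and the share of Hamp2, in 4 groups each), 6 had a library apart, where chance flags about 1 in 20. In the tumor of control mouse 4, Bmp6 (6.81 CPM) and Smad7 (9.73 CPM) were high and the share of Hamp2 in the hepcidin counts (0.991%) was low. TCM mouse 3 had a high share of Hamp2 in peri-tumor tissue (9.94%) and in tumor (16.6%). Slc11a2 was low in the peri-tumor tissue of TCM mouse 2 (25.5 CPM).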

How the results depend on the processing

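Of 50 results (10 genes in 5 comparisons), 41 kept their direction under each alternative fitted for them, and 11 of the 15 called ones kept their call. Libraries were left out only in comparisons that use them. The calls lost under some settings were Tfrc in peri-tumor tissue and Hamp, Hamp2 and Tfrc in tumors, all for TCM against control. For TCM against control in peri-tumor tissue, genes called numbered 2091. They were 3349 with limma-voom (6 of the 10 genes called, against 3), 3434 without both libraries of control mouse 4 (6 of the 10), 1162 without both libraries of TCM mouse 3, and 1101 to 3228 (2 to 6 of the 10) without 1 library. In tumors 1082 were called. They were 1805 with DESeq2, 2193 with limma-voom, 687 with no filter (0 of the 10, against 3), 1877 without control mouse 4, 412 without TCM mouse 3 (0 of the 10) and 404 to 1250 (0 to 3 of the 10) without 1 library. Library totals called 1 of the 10 there. For the difference of the tumor effect 165 were called. They were 89 with library totals, 806 with DESeq2 (3 of the 10), 603 with limma-voom (1), 79 with no filter, 714 without control mouse 4 (2), 47 without TCM mouse 3 and 58 to 665 (0 to 2) without 1 library. Leaving out TCM mice 3 and 4 was chosen after seeing the data. The cause of these shifts was not tested.

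The share of Hamp2 moved with single libraries: the difference between tissues ran from -27.3 to -10.2 percentage points in control mice and from -1.12 to 4.01 in TCM mice, and between treatments from -25.2 to -8.02 in peri-tumor tissue and from 1.07 to 5.55 in tumors.

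With the mouse as a block, tissue comparisons called 6559 genes in control and 5044 in TCM mice, and Slc11a2 joined in both. The same block called 107 genes and 0 of the 10 for the difference of the tumor effect. Across treatments the number pairs no mice. A block on the number called 0 of the 10 for TCM in tumors, where Hamp was 2.22 (edgeR, adjusted p = 0.0654), Hamp2 3.84 (0.0607) and Tfrc -1.59 (0.0656). Tfrc in peri-tumor tissue was -1.45 (0.0660).

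Signs turned only for log2 differences that were not called. For the difference of the tumor effect these were Tfrc and Slc11a2 with library totals (0.0172 and 0.01997), Slc11a2 with limma-voom (0.0337), Tfrc and Slc11a2 without control mouse 4 (0.0573 and 0.00524), and Tfrc, Smad7 and Slc11a2 without TCM mouse 3 (0.299, -0.183 and 0.0382). Without 1 library, this difference ran from -0.37 to 0.25 for Tfrc, -0.126 to 0.0798 for Slc11a2 and -0.0817 to 0.25 for Smad7. Between tissues, Fth1 in control mice was -0.0247 without control mouse 4 and ran from -0.0217 to 0.26 without 1 library, and Tfrc ran from -0.59 to 0.0358. In TCM mice Tfrc was 0.0398 without mouse 3, and Bmp6 and Smad7 0.00519 and 0.0224 without mouse 4. Fth1 with TCM in peri-tumor tissue was -0.00333 without control mouse 4.

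With library totals only, the median gene shifted by 0.11 and 0.14 (log2) in control and TCM tumors and by -0.09 and -0.06 with TCM. The share of calls that were higher went from 51.0% to 61.9% and from 52.5% to 69.3% between tissues, and from 47.7% to 29.4% in peri-tumor tissue and 62.6% to 47.3% in tumors between treatments. Counts of Hamp and Hamp2 summed gave -3.26 and -2.24 between tissues in control and TCM mice, and 1.14 (edgeR, adjusted p = 0.201) and 2.16 (0.0397) with TCM in peri-tumor tissue and tumors.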
